A study of Mus musculus with 24 samples.

Results

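The 8 genes described here encode the MHC class II chains H2-Aa, H2-Ab1 and H2-Eb1, the class II chaperone Cd74, the peptide-loading subunits H2-DMa, H2-Oa and H2-Ob, and the class II transactivator Ciita. They were chosen by symbol, and only probe sets annotated to 1 of these symbols and to no other gene were counted. This gave 16 probe sets of the 34945 that carry a single symbol, and 8 genes of 18193. H2-Aa had 4 probe sets, H2-Ab1 and Ciita 3 each, H2-DMa 2 and the other members 1 each, and where a gene had several the brightest one, by its mean across the 24 arrays, stood for the gene. The study measured RNA of 4 sorted blood progenitor populations on 24 one-colour arrays, with 3 arrays for each of 8 groups, to compare Ikaros-null with wild-type cells. Ikaros is the product of Ikzf1, a DNA-binding regulator of blood cell development. The KO groups carry the Ikaros-null allele of the I74 line (C57BL/6 x 129SV) together with the B-p-GFP-C reporter transgene, and the WT groups carry the transgene alone (C57BL/6 x C3H). In both, GFP under Ikaros regulatory sequence was used for sorting, together with the LSK or LK surface gate. LSK stands in the field for lineage-negative, Sca-1-positive, Kit-positive cells, and LK for the Sca-1-negative counterpart. The labels equate LSK GFPneg-lo with stem cells (HSC), LSK GFPhi with lymphoid-primed multipotent progenitors (LMPP), LK GFPneg with megakaryocyte and erythroid progenitors (MEP) and LK GFPhi with granulocyte and monocyte progenitors (GMP). The labels give no strain for the KO groups beyond these 2 parent lines, so strain and genotype cannot be told apart, and class II alleles are known to differ widely between mouse strains. Age was not stated in the labels, and nothing states whether an array holds RNA of 1 mouse or of a pool, so p-values measure the spread between these arrays.

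Class II molecules are surface heterodimers of an alpha and a beta chain that show peptides to CD4 T cells. Cd74, the invariant chain, holds new dimers and guides them to endosomes, where H2-DM exchanges its remnant for peptide and H2-O restrains H2-DM in B cells and some dendritic cells. Ciita binds no DNA itself and acts through factors on the shared X and Y boxes of class II promoters, and it is known to be most active in B cells, dendritic cells and activated macrophages. Progenitors are not specialised antigen-presenting cells.

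Upstream sequence is shown because the promoters of class II genes are known for an X box followed at a set distance by a Y box, and 4 of the members below carry such letters. The 6 members with an H2- symbol lie within 224.3 kb of chromosome 17 on build GRCm38.p6, between bases 34092379 and 34316674. The RefSeq promoter table of that build held 5 of the 8 members in 6 windows, since H2-DMa has 2. Each window holds 250 bases before the annotated start and 50 after it, and the motif search used all of it. The stretches shown are the 150 bases before the annotated start, given 5′ to 3′ on the gene's strand. They are chr17:34287824-34287973 on the minus strand for H2-Aa, and on the plus strand chr17:34305717-34305866 for H2-Eb1, chr17:34092229-34092378 for H2-Oa and chr17:34238755-34238904 for H2-Ob. Capitals mark GCAAC (the core of X1), CAACNGATG (a longer X1 form, overlapping it), TGACGTCA (an X2 form) and CTGATTGG (the Y box) or its core GATTGG.
H2-Aa: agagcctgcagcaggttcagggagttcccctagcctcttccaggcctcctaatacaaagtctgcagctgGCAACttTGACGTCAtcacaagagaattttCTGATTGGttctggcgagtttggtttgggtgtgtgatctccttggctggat
H2-Eb1: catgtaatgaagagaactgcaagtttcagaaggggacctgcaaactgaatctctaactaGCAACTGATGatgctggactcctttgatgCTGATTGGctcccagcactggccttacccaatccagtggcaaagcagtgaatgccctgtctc
H2-Oa: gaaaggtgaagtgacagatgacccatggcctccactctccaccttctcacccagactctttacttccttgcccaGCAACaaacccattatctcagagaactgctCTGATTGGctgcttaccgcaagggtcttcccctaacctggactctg
H2-Ob: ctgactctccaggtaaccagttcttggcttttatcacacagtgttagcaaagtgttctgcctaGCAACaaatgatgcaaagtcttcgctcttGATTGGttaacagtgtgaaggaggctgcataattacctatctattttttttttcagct

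Between GCAAC and GATTGG lay 27 bases in H2-Aa, 26 in H2-Eb1, 27 in H2-Oa and 24 in H2-Ob. That pair, with 24 to 27 bases between, was found on either strand in 4 of the 6 member windows and in 0.0944% of 32851 promoter windows of 300 bases, a pattern written down after the windows were seen. Singly, GCAAC was in 5 of 6 member windows and 35.2% of all windows, and GATTGG in 5 of 6 and 16.1%. Both of these cores were likewise chosen after the windows were seen, so their shares in the member windows are no independent result. The full Y box CTGATTGG, which contains GATTGG, was in 3 of 6 and 4.1% of all. CAACNGATG was in 1 of 6 (H2-Eb1) against 0.566% of all windows, TGACGTCA in 1 of 6 (H2-Aa) against 1.79%, and the X2 form TGCGTCA in 0 of 6 against 2.12%. TGGGAA, an Ikaros core motif, was in 3 of 6 member windows, those of H2-Aa, H2-Oa and H2-Ob, against 25.6% of all. These 3 matches lie outside the stretches shown, with first positions of -182, 31 and -173 from the annotated start. All motifs were searched on both strands, and a match describes letters only.

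The deposited values are log2 signal. A difference is the log2 value of the first group minus that of the second, with limma's standard error (3 arrays in each group). Calls were made at a Benjamini-Hochberg adjusted p under 0.05 over 18193 genes. Ikzf1 was lower on KO arrays in every population, at 6.51 to 8.88 on KO arrays against 11.00 to 11.99 on WT arrays. In both genotypes the mean of 5 MEP markers was highest in LK GFPneg, that of 5 GMP markers in LK GFPhi and that of 4 stem cell markers in LSK GFPneg-lo. The mean of 5 LMPP markers did not follow its gate in WT cells, with 10.09 to 10.27 on WT LK GFPhi arrays and 9.81 to 10.0 on WT LSK GFPhi arrays. On KO LSK GFPhi arrays it was 8.67 to 8.95, with 4 of the 5 called lower. Eif2s3y, a Y-linked gene, was 3.99 to 4.14 on 7 of 12 KO arrays and 7.20 to 8.33 on the other 5, against 7.88 to 10.4 on all 12 WT arrays, so the mix of sexes differs between genotypes. KO LK GFPhi replicate 3 stood apart from its group in Gata1, an erythroid factor, with 10.99 against 8.53 and 9.51 on the other KO arrays. In sorted bulk samples, fewer cells of a type and less RNA per cell cannot be told apart.

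Among WT populations, LK GFPneg stood apart, with lower signal than LSK GFPneg-lo for 7 of the 8 members. Between WT LSK GFPhi and its 2 comparison populations, only H2-Ob was called. H2-Aa, the alpha chain of I-A, measured 6.31, 6.30 and 5.91 in WT LK GFPneg, against 11.38, 11.04 and 10.66 in WT LSK GFPneg-lo. The difference was -4.85 ± 0.47, or 28.9-fold, with an adjusted p of 1.71e-07 in limma. This was the largest among the 4 H2-Aa probe sets, which differed by -4.85 to -1.28 and were all called lower. H2-Ob followed at -2.49 ± 0.25 (adjusted p = 2.59e-07), and H2-Eb1, H2-Ab1, H2-DMa, Cd74 and H2-Oa were lower by 1.34 to 1.81 with adjusted p-values of 0.000259 to 0.0212. Thus 7 of 8 members were called lower, where 14.1% of all genes were called lower. Of the 2 H2-DMa probe sets, which differed by -1.64 and -0.23, 1 was called lower. Of the 3 H2-Ab1 probe sets, which differed by -1.70 to -0.22, 1 was called lower. Cd74 lost its call without WT LSK GFPneg-lo replicate 1 (adjusted p = 0.0788) or WT LK GFPneg replicate 3 (0.0860), and H2-Ab1 when probe sets prone to cross-hybridisation, ending in _x_at or _s_at, were left out (-0.32, adjusted p = 0.596).

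**Figure D1:**
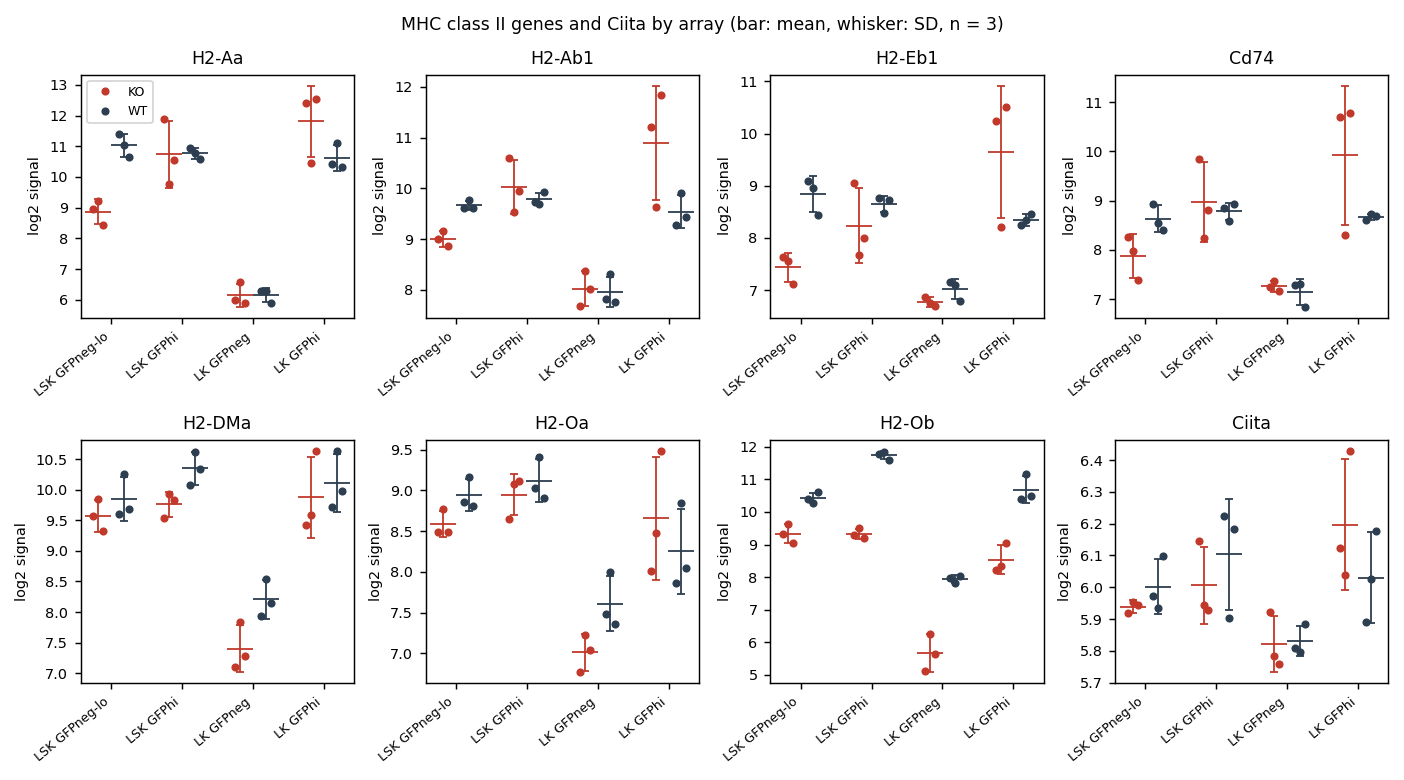
Log2 signal of each member on each of 24 arrays (points), with the group mean (bar) and SD (whisker, n = 3), KO left of WT in each population. H2-Ob is lower on all KO than on all WT arrays of each population, and 2 of the 3 KO LK GFPhi arrays stand above all WT LK GFPhi arrays for H2-Aa, H2-Ab1, H2-Eb1 and Cd74.

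WT LK GFPhi against WT LK GFPneg gave the mirror image, with 6 of 8 members higher and 9.98% of all genes called higher. H2-Aa was 10.44, 11.10 and 10.32 in WT LK GFPhi, a difference of 4.45 ± 0.47 (21.8-fold, adjusted p = 4.59e-07). The 4 H2-Aa probe sets differed by 1.33 to 4.45, and 3 of them were called higher. H2-Ob differed by 2.74 ± 0.25 (5.4e-08) and H2-DMa by 1.90 ± 0.29 (5.51e-05), while H2-Ab1, Cd74 and H2-Eb1 differed by 1.33 to 1.58. Of the 2 H2-DMa probe sets, which differed by 0.37 and 1.90, 1 was called higher. Of the 3 H2-Ab1 probe sets, which differed by 0.43 to 1.58, 1 was called higher. The calls of H2-Eb1 (adjusted p = 0.0270) and Cd74 (0.0242) were lost when single arrays were left out. For H2-Eb1 this held for each of the 6 arrays (adjusted p = 0.0503 to 0.103), and for Cd74 for WT LK GFPneg replicate 3 (0.101) and any of the WT LK GFPhi replicates 1, 2 and 3 (0.0529, 0.0678 and 0.0588). H2-Ab1 fell to a difference of 0.48 (adjusted p = 0.478) without _x_at and _s_at probe sets.

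H2-Ob, the beta chain of H2-O, was the 1 member called in WT LSK GFPhi against LSK GFPneg-lo and in WT LK GFPhi against LSK GFPhi. It measured 11.78, 11.85 and 11.60 in WT LSK GFPhi, against 10.41, 10.27 and 10.60 in WT LSK GFPneg-lo. The 3 LSK GFPhi arrays lay above the LSK GFPneg-lo arrays, by 1.32 ± 0.25 (2.49-fold, adjusted p = 0.00248), and 1 of 8 members was called higher, where 1.63% of all genes were. In WT LK GFPhi it measured 10.39, 11.17 and 10.50, which was 1.06 ± 0.25 below LSK GFPhi (adjusted p = 0.0174), where 2.53% of all genes were called lower. That call was lost without WT LSK GFPhi replicate 1 (adjusted p = 0.0663) or 2 (0.0737), and without WT LK GFPhi replicate 1 (0.129) or 3 (0.103). With the replicate block, for which the numbers pair these arrays, H2-Oa was called too (-0.87, adjusted p = 0.0221). The other members' differences in these 2 comparisons were between -0.87 and 0.50, and none was called.

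H2-Ob was lower in KO than in WT cells of every population, and its arrays did not overlap in any of them. All KO arrays lay below all WT arrays in 6.82% of all genes in LSK GFPhi, 5.61% in LK GFPneg, 7.74% in LK GFPhi and 5.38% in LSK GFPneg-lo. In LSK GFPhi it measured 9.29, 9.50 and 9.20 on KO arrays, against 11.78, 11.85 and 11.60 on WT arrays. All 3 KO arrays lay more than 2 log2 units below the lowest WT array. The difference was -2.42 ± 0.25, or 5.34-fold lower, with an adjusted p of 1.93e-06 in limma. H2-Ob was the 1 member of 8 called in LSK GFPhi, where 1.69% of all genes were called lower and 2.91% higher.

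In LK GFPneg, H2-Ob measured 5.11, 6.26 and 5.63 on KO arrays, against 7.98, 7.82 and 8.02 on WT arrays, a difference of -2.28 ± 0.25 (4.85-fold lower, adjusted p = 8.83e-06). It was again the 1 member of 8 called, where 1.45% of all genes were called lower and 1.2% higher. In LK GFPhi it measured 8.23, 8.33 and 9.04 on KO arrays, against 10.39, 11.17 and 10.50 on WT arrays, a difference of -2.16 ± 0.25 (4.45-fold lower, adjusted p = 1.05e-05), where 3.79% of all genes were called lower. In these 3 populations the call held under all 17 alternatives, with differences between -2.66 and -1.86.

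In LSK GFPneg-lo, H2-Ob measured 9.31, 9.63 and 9.06 on KO arrays, against 10.41, 10.27 and 10.60 on WT arrays. The difference was -1.10 ± 0.25, or 2.14-fold lower, with an adjusted p of 0.0215. It lost its call without WT replicate 1 (adjusted p = 0.0802) or 3 (0.109) and without KO replicate 1 (0.0658) or 3 (0.136). With Eif2s3y as a covariate the difference was -0.72 (adjusted p = 0.398). The KO effect on H2-Ob in LSK GFPhi minus that in LSK GFPneg-lo was -1.32 ± 0.35, which was not called (adjusted p = 0.224). KO LSK GFPhi and KO LSK GFPneg-lo arrays overlapped for H2-Ob, with means of 9.33 ± 0.15 and 9.33 ± 0.29 (SD).

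Over the 8 groups, H2-Ob ran in the order WT LSK GFPhi, WT LK GFPhi, WT LSK GFPneg-lo, KO LSK GFPneg-lo, KO LSK GFPhi, KO LK GFPhi, WT LK GFPneg and KO LK GFPneg. Neighbours overlapped only between WT LK GFPhi and WT LSK GFPneg-lo and between the 2 KO LSK groups. A further H2-Ob probe set is annotated also to Gm20506, so it was not counted. It measured 6.30, 6.22 and 6.05 in KO LSK GFPhi, against 6.81, 7.01 and 6.82 in WT LSK GFPhi, with the KO arrays below the WT arrays. In the other 3 populations its arrays overlapped. It was 6.25, 6.34 and 6.15 on KO arrays against 6.39, 6.11 and 6.41 on WT arrays in LSK GFPneg-lo, 6.03, 6.20 and 5.70 against 6.02, 6.09 and 5.89 in LK GFPneg, and 6.22, 6.21 and 6.48 against 6.26, 6.35 and 6.43 in LK GFPhi. The lower H2-Ob signal in KO cells of these 3 populations thus rests on the counted probe set.

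H2-Oa, the alpha chain that pairs with H2-Ob, did not pass the test in any KO against WT comparison. It measured 8.65, 9.08 and 9.12 in KO LSK GFPhi, against 9.04, 9.42 and 8.91 in WT LSK GFPhi, and the arrays overlapped. Its difference was 0.41 in LK GFPhi and -0.60 in LK GFPneg, and it was -0.17 in LSK GFPhi and -0.36 in LSK GFPneg-lo, each ± 0.29. The 95% interval in LSK GFPhi was -0.79 to 0.45. H2-Oa arrays did not overlap in LK GFPneg, where KO arrays were at 6.77, 7.22 and 7.04 and WT arrays at 7.48, 7.99 and 7.35. Thus H2-Ob was called in all 4 populations and H2-Oa in none, and a test of one gene's difference against the other's was not made.

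H2-DMa, the alpha chain of the peptide exchanger H2-DM, had a lower mean in KO cells of every population by its brighter probe set and was not called. Its largest difference was in LK GFPneg, with 7.10, 7.83 and 7.29 on KO arrays against 7.93, 8.55 and 8.15 on WT arrays. The 3 KO arrays lay below the WT arrays, by -0.80 ± 0.29 (adjusted p = 0.238). With the replicate block, which pairs these arrays, it was called (adjusted p = 0.0423), so that the members called in LK GFPneg numbered 2. The other H2-DMa probe set differed there by -0.09, so the 2 probe sets disagree in size. In LK GFPhi they disagree in direction, at -0.23 and 0.31, and their mean was at 0.04. In LSK GFPhi the KO arrays, at 9.53, 9.92 and 9.83, also lay below the WT arrays, at 10.08, 10.62 and 10.34, a difference of -0.58 ± 0.29 that was not called.

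**Figure D2:**
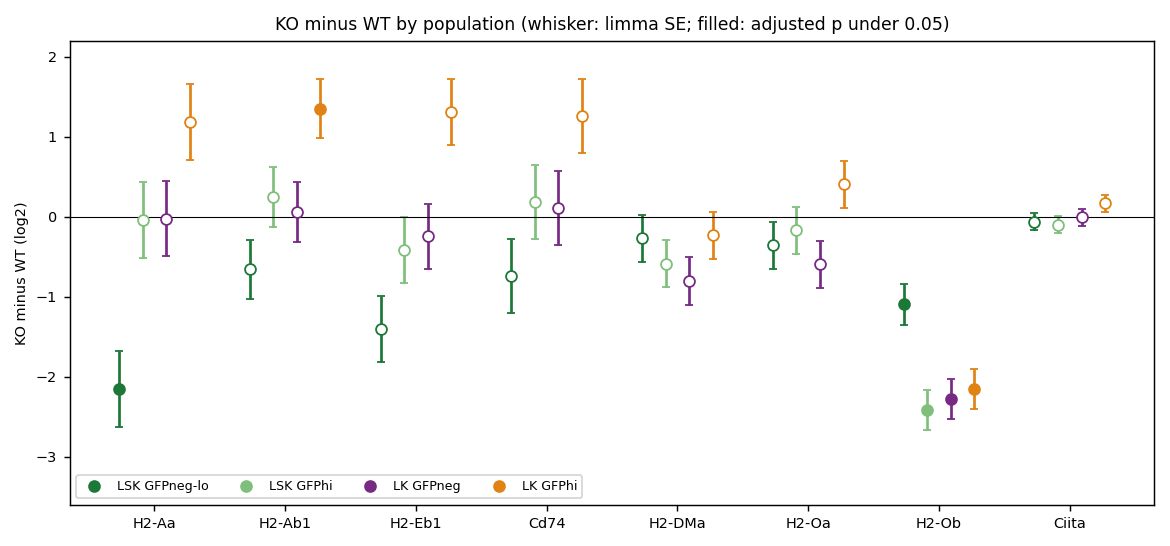
KO minus WT difference in log2 signal for each member (x axis) in each of the 4 populations (colours), with limma's standard error as whisker (n = 3 arrays per group). Filled points passed an adjusted p of 0.05: H2-Ob lower in all 4 populations, H2-Aa lower in LSK GFPneg-lo and H2-Ab1 higher in LK GFPhi.

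H2-Aa, H2-Ab1, H2-Eb1 and Cd74 are the antigen-presenting chains and their chaperone. By the probe sets that stood for these genes, they were lower in KO than in WT cells of LSK GFPneg-lo on every array. H2-Aa measured 8.97, 9.22 and 8.43 on KO arrays, against 11.38, 11.04 and 10.66 on WT arrays. The highest KO array was more than 1 log2 unit below the lowest WT array. The difference was -2.16 ± 0.47, or 4.46-fold lower, with an adjusted p of 0.0159. H2-Eb1, the beta chain of I-E, measured 7.64, 7.56 and 7.11 on KO arrays, against 9.10, 8.96 and 8.45 on WT arrays, a difference of -1.40 ± 0.41 (adjusted p = 0.0979). With the replicate block, which pairs these arrays, H2-Eb1 was called (adjusted p = 0.0376). H2-Ab1, the beta chain of I-A, differed by -0.66 ± 0.37 (adjusted p = 0.643) and Cd74 by -0.75 ± 0.46 (0.719), and neither was called. The 3 H2-Ab1 probe sets differed by -0.66 to -0.02. In the dimmest of them the arrays overlapped, at 5.55, 5.68 and 5.66 on KO arrays against 5.74, 5.66 and 5.52 on WT arrays.

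In all, 2 of 8 members were called lower in LSK GFPneg-lo, H2-Aa and H2-Ob, where 0.879% of all genes were called lower and 1.26% higher. All 8 differences were below 0, with a median of -0.70 against 0.03 over all genes, and for 6 members all KO arrays lay below all WT arrays, as for 5.38% of all genes. The H2-Aa call was lost without WT replicate 1 (adjusted p = 0.0996) or KO replicate 3 (0.1), when probe sets were averaged (-1.84, 0.104) and, at 0.0518, with Eif2s3y as a covariate. The 4 H2-Aa probe sets had differences of -2.16 to -1.05, and 1 of them was called. The mean of 5 GMP markers was 10.6 to 11.06 on KO arrays of this population, against 9.88 to 10.31 on WT arrays, with 2 of the 5 called higher, and their part in the class II values was not tested.

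In LSK GFPhi and LK GFPneg the antigen-presenting chains showed no called difference between genotypes. H2-Aa measured 11.90, 9.76 and 10.55 in KO LSK GFPhi, against 10.96, 10.77 and 10.59 in WT LSK GFPhi, a difference of -0.04 ± 0.47 with a 95% interval of -1.03 to 0.96. The KO arrays spanned the WT arrays on both sides, replicate 1 being above and replicates 2 and 3 below, and the difference was -0.62 without KO replicate 1 and 0.45 without KO replicate 2, both uncalled. In LK GFPneg it measured 5.99, 6.57 and 5.90 on KO arrays, against 6.31, 6.30 and 5.91 on WT arrays, a difference of -0.02 ± 0.47. H2-Ab1, H2-Eb1 and Cd74 differed by -0.42 to 0.25 in these 2 populations. The H2-Aa probe set that stood for the gene thus gave differences near 0 in these populations and -2.16 in LSK GFPneg-lo. Its signal was lowest of all groups in LK GFPneg of both genotypes, where a decrease would be hard to see. The KO effect minus that in LSK GFPneg-lo was 2.12 ± 0.67 in LSK GFPhi and 2.13 ± 0.67 in LK GFPneg. Neither was called by limma (adjusted p = 0.476 and 0.249).

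In LK GFPhi the mean signal of these 4 genes was higher in KO than in WT cells, with 2 of the 3 KO arrays above all WT arrays. H2-Aa measured 12.42, 10.47 and 12.54 on KO arrays, against 10.44, 11.10 and 10.32 on WT arrays. H2-Ab1 measured 11.21, 9.64 and 11.84 on KO arrays, against 9.28, 9.91 and 9.44 on WT arrays. H2-Eb1 measured 10.25, 8.20 and 10.51 on KO arrays, against 8.24, 8.34 and 8.46 on WT arrays. In each of these genes KO replicates 1 and 3 were above every WT array and KO replicate 2 was within or below the WT range, as it also was for Cd74, at 10.70, 8.29 and 10.78 on KO arrays against 8.60, 8.72 and 8.68 on WT arrays.

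H2-Ab1 alone of the 4 was called in LK GFPhi, at 1.35 ± 0.37 (2.55-fold higher, adjusted p = 0.0253), so that 1 of 8 members was higher where 5.78% of all genes were, and 1 was lower, H2-Ob. The differences were 1.31 ± 0.41 for H2-Eb1 (adjusted p = 0.0508), 1.26 ± 0.46 for Cd74 (0.0952) and 1.19 ± 0.47 for H2-Aa (0.123). With the replicate block, which pairs these arrays, H2-Eb1 (adjusted p = 0.0187) and Cd74 (0.0390) were called too, which made 4 members. Without KO replicate 2, H2-Aa was at 1.86 (adjusted p = 0.00874), H2-Ab1 at 1.98 (0.000112), H2-Eb1 at 2.03 (0.000124) and Cd74 at 2.07 (0.000341), and 5 members were called. H2-Ab1 lost its call without WT replicate 1 (0.101) or 3 (0.0838), and without KO replicate 1 (0.0707) or 3 (0.163, at 0.88). The call was also lost with the compared groups alone (adjusted p = 0.24), array weights (0.0568) or Eif2s3y as a covariate (0.0846). Limma's standard error used 1 spread shared by all 8 groups, while the H2-Ab1 SD in LK GFPhi was 1.13 on KO and 0.33 on WT arrays. The 3 H2-Ab1 probe sets differed by 0.72 to 1.35 there, and the 4 H2-Aa probe sets by 0.95 to 2.11.

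The mean of H2-Aa, H2-Ab1, H2-Eb1 and Cd74, each centred on its own mean over 24 arrays, shows the same arrays apart. It was 2.29, 0.30 and 2.57 in KO LK GFPhi, against 0.29, 0.67 and 0.37 in WT LK GFPhi. In KO LSK GFPhi it was 1.50, -0.05 and 0.47, against 0.72, 0.53 and 0.69 in WT LSK GFPhi, so KO replicate 1 was the high array there. Dendritic cell markers moved with these arrays in part. The mean of 8 such markers was 7.19, 7.04 and 7.40 in KO LK GFPhi, against 7.07 to 7.23 in WT LK GFPhi, and Cst3, a protease inhibitor abundant in dendritic cells, was 12.29, 11.65 and 12.69 on KO arrays against 11.96, 11.73 and 11.80 on WT arrays. Batf3, a factor of cross-presenting dendritic cells, was 7.68, 7.33 and 8.02 on KO arrays, against 7.55, 7.81 and 7.32 on WT arrays. Itgax, which encodes CD11c, was 6.55, 6.62 and 6.47 on KO arrays, below 7.09 to 7.24 on WT arrays. In KO LSK GFPhi the mean of the 8 dendritic cell markers was 7.126, 6.952 and 7.005, against 7.075 to 7.249 in WT LSK GFPhi. That of 9 macrophage and monocyte markers was 8.139, 7.990 and 7.848, against 7.540 to 7.794. Among the latter, C1qa was 7.41, 6.38 and 6.26 in KO LSK GFPhi, against 6.34 to 6.77 in WT LSK GFPhi. Cd68 and Adgre1 varied little between these KO arrays, at 9.54 to 9.67 and 7.43 to 7.51. Markers of other gates differed in LK GFPhi too. The mean of 5 LMPP markers was 7.56 to 8.81 on KO arrays, against 10.09 to 10.27 on WT arrays, with 4 called lower. The mean of 5 MEP markers was 7.77 to 8.85 on KO arrays, against 7.18 to 7.35 on WT arrays, with 2 called higher, and that of 4 stem cell markers was 8.50 to 8.64 on KO arrays, against 7.33 to 7.92 on WT arrays, with 1 called higher. The part of these markers in the class II values was not tested.

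Whether the KO effect differed between populations was tested as a difference of differences. KO effects were set against each other between LSK GFPhi and LSK GFPneg-lo, LK GFPneg and LSK GFPneg-lo, LK GFPhi and LSK GFPhi, and LK GFPhi and LK GFPneg. In these, 0 of 8 members were called by limma, where 0.313%, 0.808%, 0.143% and 2.5% of all genes were called in either direction, in that order. At an unadjusted p under 0.05 there were 2, 2, 2 and 3 members, where 3.26%, 5.85%, 8.11% and 10.4% of all genes were. In LK GFPhi against LSK GFPneg-lo, a pair added after the values were seen, 2 of 8 members were called, where 0.649% of all genes were called higher. These were H2-Aa, at 3.35 ± 0.67 (adjusted p = 0.0172), and H2-Eb1, at 2.71 ± 0.58 (0.0275), while H2-Ab1 was at 2.01 ± 0.52 (0.0750) and Cd74 at 2.003 ± 0.65 (0.199). The other added pair, LK GFPneg against LSK GFPhi, called 0 of 8 members, where 1.97% of all genes were called, with 0 at an unadjusted p under 0.05, where 8.38% of all genes were. H2-Aa lost the added call without WT LSK GFPneg-lo replicate 1 (adjusted p = 0.0522), KO LSK GFPneg-lo replicate 3 (0.0598) or WT LK GFPhi replicate 3 (0.0520). H2-Eb1 lost it when any of 7 arrays was left out, KO LK GFPhi replicates 1 and 3 among them (0.0608 and 0.0584). Without KO LK GFPhi replicate 2, H2-Eb1 was called also between LK GFPhi and LSK GFPhi (2.45, adjusted p = 0.0122).

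Ciita, the class II transactivator, varied little on the array. Its 3 probe sets ranged over 0.51 to 0.69 log2 units across 24 arrays, against 6.75 for H2-Ob and 6.65 for H2-Aa. It measured 6.12, 6.04 and 6.43 in KO LK GFPhi, against 5.89, 6.03 and 6.18 in WT LK GFPhi, and the arrays overlapped. Its differences between genotypes were -0.10 to 0.17, each ± 0.11, and none was called. Its 3 probe sets disagreed in direction in LK GFPhi, at -0.23 to 0.29. In WT LK GFPneg it was at 5.81, 5.80 and 5.89, against 5.97, 5.94 and 6.10 in WT LSK GFPneg-lo, a difference of -0.17 ± 0.11 (adjusted p = 0.296) beside the -4.85 to -1.28 of the 4 H2-Aa probe sets. The files used hold no detection call, so whether the 3 Ciita probe sets measured Ciita RNA above background was not tested.

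**Figure D3:**
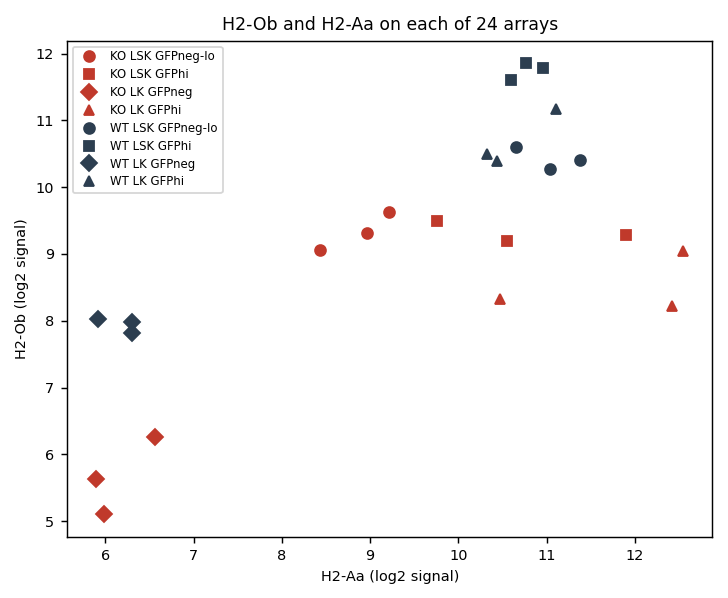
H2-Ob against H2-Aa, both as log2 signal, on each of 24 arrays, with KO in red, WT in dark blue and a marker shape per population. Outside LK GFPneg, KO and WT arrays lie in separate bands of H2-Ob, at 8.23 to 9.63 and 10.27 to 11.85, while their H2-Aa values, pooled over these populations, overlap. Within LSK GFPneg-lo the H2-Aa values do not overlap, at 8.43 to 9.22 on KO and 10.66 to 11.38 on WT arrays.

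Over all 24 arrays, Pearson's r among H2-Aa, H2-Ab1, H2-Eb1 and Cd74 was 0.902 to 0.963, and r of H2-Ob with these 4 was 0.450 to 0.710. Over the 18 arrays outside LK GFPneg, which is a cluster of its own, r among the 4 was 0.879 to 0.952. H2-Ob had r of -0.258 to 0.00669 with them and 0.598 with H2-DMa, and H2-Oa had 0.641 with H2-DMa. These are descriptions over arrays that share populations, genotypes and, by replicate number, possibly mice. Ciita had r of 0.59 to 0.71 with the 4.

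The non-members most like each profile were ranked by r over all 24 arrays, where the low LK GFPneg arrays raise r. For the mean of the 4 antigen-presenting genes they were Shtn1 (0.903), Arhgdib (0.896), Tmem50b (0.890), Lsp1 (0.887) and Cst3 (0.885), with 0.823, 0.722, 0.657, 0.626 and 0.647 over the 18 arrays. For H2-Ob they were Mndal (0.955), Cd96 (0.950), H2-M3 (0.949), Retreg1 (0.944) and Aff3 (0.942), with 0.948, 0.899, 0.842, 0.852 and 0.867 over the 18 arrays. For Ciita they were Lpcat2 (0.798), B3galnt1 (0.790), Pik3r5 (0.781), Synj2 (0.780) and Tlr3 (0.769).

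Among 29 other measured genes of the class II pathway, the counts called between genotypes were 1 higher and 0 lower in LSK GFPneg-lo, 1 higher and 2 lower in LSK GFPhi, 1 higher and 1 lower in LK GFPneg, and 1 higher and 5 lower in LK GFPhi. In either direction this was 3.45%, 10.3%, 6.9% and 20.7% of the 29, where 2.14%, 4.6%, 2.65% and 9.56% of all genes were called. The medians of the 29 were between 0.005 and 0.09, against 0.01 to 0.07 over all genes. Ifi30, the lysosomal thiol reductase that unfolds antigens, was the higher gene in the first 3. It was higher by 1.59 ± 0.29 in LSK GFPneg-lo, 1.63 ± 0.29 in LSK GFPhi and 1.73 ± 0.29 in LK GFPneg (adjusted p = 0.00355, 0.00122 and 0.00111), and in the first of these the call was lost with Eif2s3y as a covariate (0.0590).

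Ctss, the cathepsin that trims the invariant chain, was lower in KO LSK GFPhi (-1.36 ± 0.35, adjusted p = 0.0234) and KO LK GFPhi (-1.43 ± 0.35, 0.0112). In LK GFPhi it measured 10.55, 9.40 and 11.57 on KO arrays, against 12.03, 11.79 and 11.99 on WT arrays, with all KO arrays below. The call was lost without KO LK GFPhi replicate 2 (-0.88, 0.0564), and in LSK GFPhi without any of 4 arrays, WT replicates 1 and 3 and KO replicates 2 and 3 (0.0885 to 0.121). With the replicate block Ctss was also called in LSK GFPneg-lo (-1.16, adjusted p = 0.0256). Irf8, a myeloid and dendritic cell factor, was lower in KO LK GFPhi, at 9.86, 10.13 and 10.29 on KO arrays against 11.09, 11.90 and 11.25 on WT arrays (-1.32 ± 0.31, adjusted p = 0.00897). Creb1, a factor known at the X2 box, and Nfya, a subunit of the Y box factor NF-Y, were lower there by 1.11 and 0.71 (adjusted p = 0.00816 and 0.0179), but by 0.31 and 0.14, uncalled, when probe sets were averaged. Both were also uncalled without WT LK GFPhi replicate 3 (adjusted p = 0.0568 and 0.0879), and Nfya without KO LK GFPhi replicate 2 (0.0844). The other calls in LK GFPhi were Lgmn (-0.71 ± 0.22, adjusted p = 0.0422), an endosomal protease, and Cd80 (0.36 ± 0.11, 0.0372), a costimulator, and each was lost without any of several single arrays.

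Irf4 (-0.40 ± 0.11, adjusted p = 0.0461) was the other lower gene in KO LSK GFPhi, a call lost without any of 5 of the 6 arrays. Ifngr1, a chain of the interferon gamma receptor, was lower in KO LK GFPneg (-0.92 ± 0.16, adjusted p = 0.00165). Rfx5, which binds the X1 box, differed by -0.27 ± 0.20, -0.30 ± 0.20, -0.46 ± 0.20 and -0.63 ± 0.20 in the 4 populations in their usual order and was not called. With the replicate block it was called in LK GFPhi (adjusted p = 0.0232), as was Spi1, a myeloid factor, which was 0.63 ± 0.24 higher there (0.0203 with the block and 0.110 without). H2-DMb2 differed by -0.04 to 0.19 and H2-Ea, the alpha chain of I-E, by -0.05 to 0.25, and neither was called in any population. Group means of H2-Ea lay between 9.54 and 9.90 throughout, LK GFPneg included, and whether its probe set measured H2-Ea RNA was not tested. Nlrc5, the class I counterpart of Ciita, differed by -0.41 to -0.71 and was not called.

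**Figure D4:**
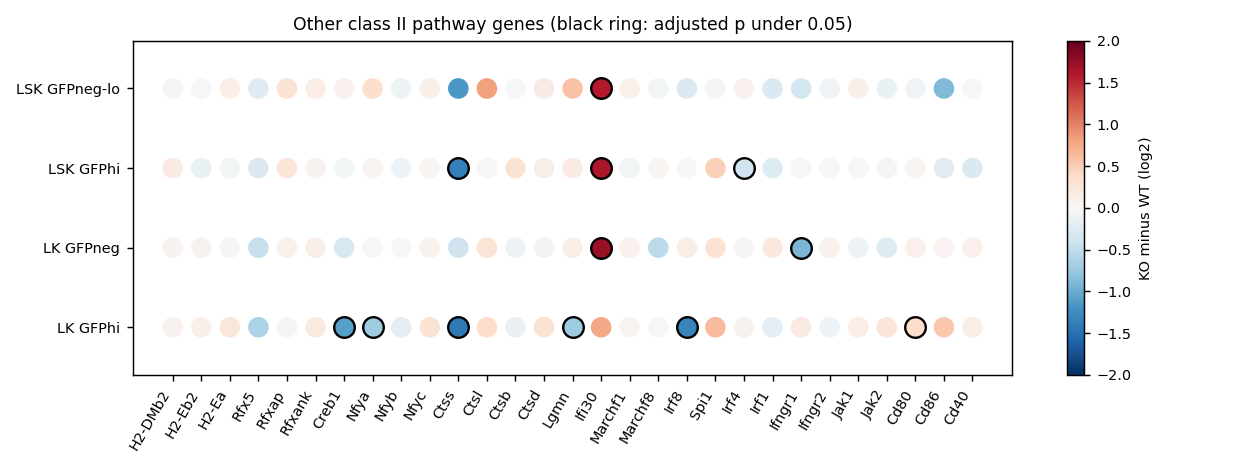
KO minus WT difference in log2 signal (colour) of the 29 other class II pathway genes measured (x axis), in the 4 populations (rows), with a black ring where limma's adjusted p was under 0.05. Ifi30 is higher and called in the first 3 rows, and the bottom row, LK GFPhi, holds 6 of the 12 ringed points.

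Of 97 measured neighbours within 1 Mb of the H2 members on the chromosome, 0 were called higher and 3 lower in LSK GFPneg-lo, 2 and 1 in LSK GFPhi, 2 and 2 in LK GFPneg and 7 and 1 in LK GFPhi. In either direction this was 3.09%, 3.09%, 4.12% and 8.25% of the neighbours, beside 2.14%, 4.6%, 2.65% and 9.56% of all genes. The neighbours' medians were -0.01 to 0.08. Ltb, which encodes lymphotoxin beta, was lower in LSK GFPneg-lo (-2.15 ± 0.34, adjusted p = 0.000871) and LSK GFPhi (-1.95 ± 0.34, 0.000995), and with the replicate block also in LK GFPhi (-0.95, adjusted p = 0.0163). Of 16 class I genes, 0 were called in LSK GFPneg-lo (2 at an unadjusted p under 0.05), 1 lower in LSK GFPhi, 2 lower in LK GFPneg and 1 lower in LK GFPhi. H2-M3, a nonclassical class I gene that presents formylated peptides, was the lower one in LSK GFPhi (-0.60 ± 0.15, adjusted p = 0.0230), LK GFPneg (-0.79 ± 0.15, 0.00424) and LK GFPhi (-0.67 ± 0.15, 0.00672), joined in LK GFPneg by Psmb8, an immunoproteasome subunit (-0.74 ± 0.18, 0.0265). The LSK GFPhi call of H2-M3 was lost without any of 4 arrays (adjusted p = 0.0540 to 0.125), and that of Psmb8 without any of 4 (0.1 to 0.15).

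Of 18 measured interferon-induced genes, 8 were called lower in LSK GFPhi, 3 in LSK GFPneg-lo, 3 in LK GFPhi and 2 in LK GFPneg, and 0 were called higher in any population. Over all genes 1.69%, 0.879%, 3.79% and 1.45% were called lower, in that order. The medians of the 18 were -0.85 in LSK GFPhi, -0.66 in LSK GFPneg-lo, -0.36 in LK GFPhi and -0.43 in LK GFPneg. In LSK GFPhi their mean was 9.049, 8.955 and 9.887 on WT arrays, replicate 3 being highest, against 8.265 to 8.407 on KO arrays. Rtp4, a chaperone induced by interferon, was called in all 4, with -1.48 ± 0.26 in LSK GFPneg-lo and -1.74 ± 0.26 in LSK GFPhi (adjusted p = 0.00207 and 0.000156). In LSK GFPhi these values stand beside the -0.04 of H2-Aa and the -2.42 of H2-Ob.

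Markers of mature antigen-presenting cells were examined beside the class II values. Of 8 B cell markers, 0 were called by limma in any population, with 1, 0, 0 and 2 at an unadjusted p under 0.05, and their mean was 6.55 to 6.79 on KO arrays against 6.44 to 6.77 on WT arrays outside LK GFPneg. Pax5 and Cd79a stayed at 6.23 to 6.82 and 5.34 to 6.07 on all 12 KO arrays, against 6.24 to 6.61 and 5.48 to 5.97 on all 12 WT arrays. Cd79b, the partner chain of Cd79a, was at 8.35 to 9.29 on KO arrays and 7.96 to 8.74 on WT arrays outside LK GFPneg, and at 5.55 to 5.88 on KO arrays and 5.61 to 5.79 on WT arrays in LK GFPneg. Its KO arrays lay above its WT arrays in LSK GFPneg-lo, by 0.39 ± 0.14 (adjusted p = 0.240), and in LK GFPhi, by 0.35 ± 0.14 (0.121), and neither was called. Of 8 dendritic cell markers, 0 were called in LSK GFPneg-lo and LK GFPneg (0 and 2 at an unadjusted p under 0.05), 2 lower in LSK GFPhi (Itgax and Ccr7) and 1 lower in LK GFPhi (Itgax). Of 9 macrophage and monocyte markers, Csf1r and Cd68 were higher in KO LSK GFPneg-lo, by 1.46 ± 0.24 and 1.40 ± 0.24 (lost with the compared groups alone, adjusted p = 0.0791 and 0.106), and in KO LSK GFPhi, by 1.27 ± 0.24 and 1.47 ± 0.24. In LK GFPneg 0 were called (0 at an unadjusted p under 0.05), and in LK GFPhi Cx3cr1 was lower (-1.36 ± 0.25). Of 4 T cell markers, Cd4 and Cd8a were called higher in KO LK GFPhi, by 0.54 ± 0.12 and 0.37 ± 0.08, and 0 elsewhere (1, 1 and 0 at an unadjusted p under 0.05). Both calls were lost with the compared groups alone (adjusted p = 0.0718 and 0.132). That of Cd8a was also lost without _x_at and _s_at probe sets (0.147) and with probe sets averaged (0.105). The part of these markers in the class II values was not tested.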

How the data were processed

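Total RNA was extracted with Trizol and labelled as biotinylated cRNA, per the labels' protocols. The authors processed the arrays with RMA, per the submitters' processing notes, and the deposited values are log2 signal (3.33 to 14.5). The RMA version was not given in the sources used here. All columns were used. Of 45101 probe sets, 64 controls, 932 with several symbols and 9160 with none were left out. Of the 34945 kept, 34741 were found in the RefSeq gene table through their Entrez ID. Coordinates and promoters are RefSeq's on GRCm38.p6. The probe set with the highest mean was kept per gene.

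Differences were fitted with limma 3.58.1 in R 4.3.3 as 8 group means over 24 arrays (16 residual and 3.27 prior degrees of freedom), with two-sided p-values adjusted by Benjamini and Hochberg. An exact permutation test of 3 against 3 arrays cannot go below 0.1. The number of arrays limits the precision. On simulated data (KO against WT in LSK GFPhi, 18193 genes, 200 changed), log2 changes of 0.5, 1 and 2 were recovered in 43.3, 83.6 and 98.5%, with 5.66% false calls. The simulated noise was independent between arrays, with 1 spread per gene in all groups, so these rates may not hold here. In the data, residuals of same-numbered arrays had r of up to 0.751. Spreads also differed, as for Cd74 in LK GFPhi, with an SD of 1.41 on KO and 0.06 on WT arrays. Comparisons were KO against WT in 4 populations, 4 between WT populations, and 6 between KO effects, 2 of them added after the values were seen.

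The members and lists were chosen with earlier results of these data known. Named were all members, per KO comparison up to 6 called genes of a list (smallest adjusted p first), a short panel of pathway genes, markers beside a member, and the 5 genes most like each of 3 profiles. Interferon and neighbour genes beyond those named are given as counts. Same-numbered arrays were taken as paired where every correlation of their residuals exceeded 0.1. The lowest r in KO against WT was 0.276 in LSK GFPneg-lo, 0.0238 in LSK GFPhi (not paired), 0.359 in LK GFPneg and 0.175 in LK GFPhi, and 0.171 to 0.582 between WT populations. Alternatives were the compared groups alone, the replicate block, the dimmest 40% of probe sets or _x_at and _s_at probe sets left out, probe sets averaged, median centring, further quantile normalization, array weights, eBayes with trend and robust settings, a 2-fold minimum, Eif2s3y as a covariate, and each array left out.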

Additional observations from a re-analysis of the deposited data

Results flagged for a closer look

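The KO effects on H2-Aa and H2-Eb1 differed between LK GFPhi and LSK GFPneg-lo by limma's test of the difference itself, a pair of populations added after the values were seen. For H2-Aa the KO effect was 1.19 in LK GFPhi and -2.16 in LSK GFPneg-lo, a difference of 3.35 (adjusted p = 0.0172). For H2-Eb1 it was 1.31 in LK GFPhi and -1.40 in LSK GFPneg-lo, a difference of 2.71 (adjusted p = 0.0275). KO LK GFPhi replicate 2 stood with the WT LK GFPhi arrays for both genes, and without it the H2-Aa difference was 4.02 and that of H2-Eb1 3.43. With the compared groups alone the values were unchanged and neither was called (adjusted p = 0.0713 and 0.150).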

How the results depend on the processing

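Of 112 member values in 14 comparisons, 23 were called, and 0 of these changed sign under any alternative run. The compared groups alone, the replicate block, the trend and robust settings and the 2-fold minimum leave each difference as it was. Under those the sign could not change. Of the 89 uncalled values, 20 changed sign under at least 1 alternative. Numbers of members called changed as follows, and not every changed count is listed. KO against WT in LSK GFPneg-lo called 2, and 3 with the replicate block, 4 with the compared groups alone, 1 without _x_at and _s_at probe sets, 1 with probe sets averaged, 0 with Eif2s3y as a covariate and 0 to 2 with an array left out. Array weights added a call of H2-Eb1 there (adjusted p = 0.0168). LK GFPneg called 1, and 2 with the replicate block and 3 with array weights. LK GFPhi called 2, and 1 with the compared groups alone, array weights or Eif2s3y, 4 with the replicate block and 1 to 5 with an array left out. H2-Eb1 was also called there with the dimmest 40% left out (adjusted p = 0.0409), probe sets averaged (0.0439) or the trend and robust settings (0.0464). WT LK GFPhi against WT LSK GFPhi called 1, and 0 with the compared groups alone, 2 with the replicate block or array weights and 0 to 2 with an array left out. The differences of KO effects called 0, and 1 with the compared groups alone for LSK GFPhi or LK GFPneg against LSK GFPneg-lo, 1 with array weights for LK GFPneg against LSK GFPneg-lo and for LK GFPhi against LK GFPneg, and with an array left out 0 to 1, 0 to 1 and 0 to 3 for LK GFPneg against LSK GFPneg-lo, LK GFPhi against LSK GFPhi and LK GFPhi against LK GFPneg. The added LK GFPhi against LSK GFPneg-lo called 2, and 0 with the compared groups alone, 1 without _x_at and _s_at probe sets and 0 to 4 with an array left out. The replicate block changed no other member count in a paired comparison. For H2-Ab1 in that added, unpaired comparison the block gave an adjusted p of 0.0362. H2-Aa has no value without _x_at and _s_at probe sets, since all 4 of its probe sets end so. The causes were not tested, except that fewer arrays leave fewer degrees of freedom. Signal over background could not be judged, and 3 arrays per group left differences of KO effects with standard errors of 0.15 to 0.67.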
